A study of Mus musculus with 9 samples.

Results

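Expression of 9 genes of the neuroectoderm was followed in mouse embryonic stem cells (mESC) that left naive pluripotency with or without nitric oxide. The genes were Sox1, Pax6, Pax3, Nes, Neurog2, Neurod1, Olig2, Hes5 and Sox11. They were chosen by name as transcription factors and markers of early neural tissue, with earlier results of these data known. All 9 had a row among the 29069 genes of the deposited table. Total RNA of the D3 line, adapted to feeder-free growth, was sequenced 24 h after the cells were placed in GS, DM or NO medium, with 3 replicates per medium. In ground-state medium (GS), serum-free N2B27 held the MEK inhibitor PD0325901 at 1 μM, the GSK-3 inhibitor CHIR99021 at 3 μM and leukaemia inhibitory factor (LIF) at 20 ng/mL. In differentiation medium (DM), cells grew in DMEM with 10% fetal bovine serum and without the inhibitors or added LIF. In NO medium they received DM plus 250 μM DETA/NO, a donor that releases nitric oxide. DM and NO thus differed by the donor alone, whereas GS differed from both in base medium, serum, inhibitors and LIF, whose shares cannot be told apart. All samples came from 1 unmodified line. The labels did not say whether the replicates were separate cultures, so the p-values measure the spread between these samples, which may be technical.

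Neuroectoderm is the germ layer that forms brain, spinal cord and neural crest. Sox1 is among the earliest factors restricted to the neural plate, Pax6 and Pax3 pattern it along its axes, and Nes encodes nestin, an intermediate filament of neural progenitors. Notch signalling keeps progenitors dividing through its target Hes5, while the proneural factors Neurog2 and Neurod1 drive neurons to form, Olig2 specifies motor neuron and oligodendrocyte progenitors, and Sox11 acts in newly formed neurons. In mESC many of these genes have promoters rich in CpG dinucleotides and are held at low levels.

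Promoter windows from 250 bases before to 50 bases after the start site, taken from RefSeq for GRCm38.p6, were at hand for 8 of the 9 genes, Pax6 having 2 of them and Pax3 none. The ratio of observed to expected CpG dinucleotides was 0.57 to 1.07 in the 9 windows, with a median of 0.82, against a median of 0.38 over 32851 promoters. All 9 windows lay above a ratio of 0.5, as did 41.9% of all promoters. The hexamer CACCTG, searched on both strands and a subset of the E-box CANNTG, was found in 1 window, that of Hes5, against 20.2% of all promoters. CANNTG was found in 4 windows, those of Hes5, Neurod1, Sox11 and the second of Pax6, against 72.3% of all promoters. Windows of 3 genes are shown to set the genes with the clearest differences between media, Sox11 and Neurod1, beside Olig2, which was hardly expressed. Their positions are chr12:27342669-27342968 on the minus strand for Sox11, chr2:79456587-79456886 on the minus strand for Neurod1 and chr16:91225300-91225599 on the plus strand for Olig2. The gene positions given further on are from GENCODE, whose starts can differ from those of RefSeq. The Sox11 window lies wholly upstream of its GENCODE position. Capitals mark CpG dinucleotides, of which there were 21, 26 and 25 in this order, with ratios of 0.82, 0.84 and 0.82.
Sox11: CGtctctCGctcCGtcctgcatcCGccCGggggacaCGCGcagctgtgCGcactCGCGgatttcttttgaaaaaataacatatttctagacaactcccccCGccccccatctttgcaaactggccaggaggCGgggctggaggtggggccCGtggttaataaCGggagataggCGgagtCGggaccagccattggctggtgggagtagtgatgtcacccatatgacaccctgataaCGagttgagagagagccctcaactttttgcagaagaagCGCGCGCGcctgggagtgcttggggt
Neurod1: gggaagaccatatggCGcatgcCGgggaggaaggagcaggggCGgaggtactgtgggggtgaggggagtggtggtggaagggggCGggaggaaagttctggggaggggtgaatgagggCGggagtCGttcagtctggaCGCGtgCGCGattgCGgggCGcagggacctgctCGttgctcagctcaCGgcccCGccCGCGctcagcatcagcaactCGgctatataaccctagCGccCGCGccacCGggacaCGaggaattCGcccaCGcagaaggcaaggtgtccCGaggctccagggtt
Olig2: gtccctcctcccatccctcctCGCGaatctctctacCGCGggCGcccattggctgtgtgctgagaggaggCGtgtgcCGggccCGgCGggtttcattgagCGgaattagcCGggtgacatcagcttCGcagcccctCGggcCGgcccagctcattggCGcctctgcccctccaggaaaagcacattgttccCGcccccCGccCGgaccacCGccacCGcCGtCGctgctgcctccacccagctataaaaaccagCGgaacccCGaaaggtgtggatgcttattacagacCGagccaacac
To 2 decimals the ratio of Olig2 equalled that of Sox11, although their levels differed.

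**Figure D1:**
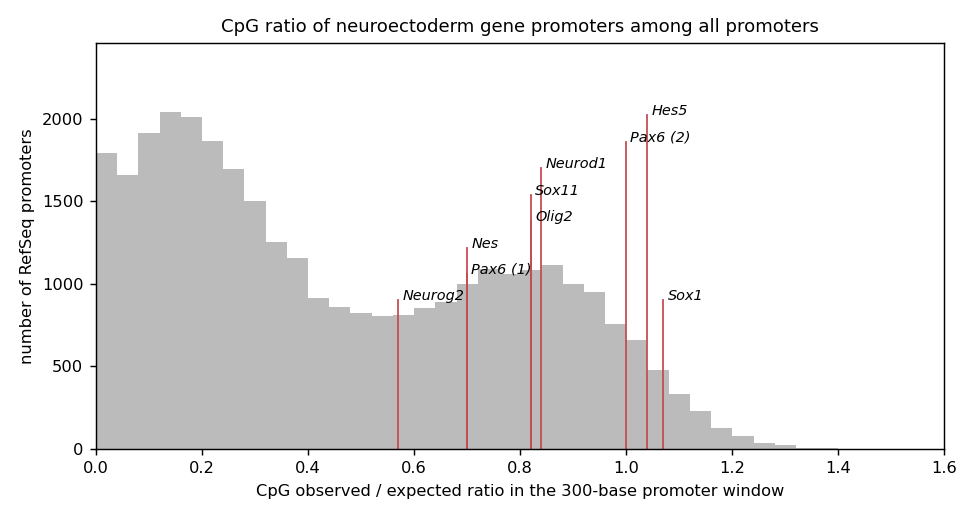
Histogram of the CpG observed/expected ratio (x axis) over 32851 RefSeq promoter windows of 300 bases (grey bars, number of promoters on the y axis). Red lines mark the 9 windows of the neuroectoderm genes, their height serves only to separate the names, and they lie between 0.57 (Neurog2) and 1.07 (Sox1).

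Values are normalised counts, that is, reads per gene that the authors divided by each sample's DESeq2 size factor and rounded. The spacing of the low values gave what 1 read was worth, 0.7009 to 1.323 normalised counts, and estimated depths of 14307523 to 27064952 assigned reads. The detection floor was set at 3 reads, or 2 to 4 normalised counts depending on the sample. It covers counting error only. The identity of the cells was checked with markers. The summed normalised counts of 8 pluripotency genes were 79619 to 82964 in GS, 79428 to 91279 in DM and 45370 to 79031 in NO. NO replicate 2 stood apart, with the lowest of these sums. It also had the highest sums of 5 primitive endoderm markers (661, against 76 to 304 in the other 8 samples) and of 5 trophoblast markers (669, against 63 to 429). For the neuroectoderm genes and the lists of further neural genes, the fit was therefore repeated without NO replicate 2. Where a gene named from them passed the thresholds only with this sample, this is stated. No such fit is given for the marker genes, and values include this sample unless stated otherwise.

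Of the 9 genes, 4 were above the floor in every sample (Sox1, Nes, Neurod1 and Sox11), 4 lay near it (Pax6, Pax3, Hes5 and Olig2), and Neurog2 never exceeded it. In GS, Neurog2 and Olig2 were at or under the floor in all 3 replicates. In DM this held for Neurog2, Olig2 and Pax3, and in NO for Neurog2, Hes5 and Pax6. Only Neurog2 was at the floor in all 3 media. These were bulk samples, in which fewer cells with a transcript and less transcript per cell cannot be told apart. The filter for testing, a mean above 5 normalised counts over the 9 samples, left 5 of the 9 genes (Sox1, Pax6, Nes, Neurod1 and Sox11), as it left 18156 of the 29069 genes. Pax6 passed it with a mean of 5.78, mainly through its DM samples, so its calls rest on few reads.

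**Figure D2:**
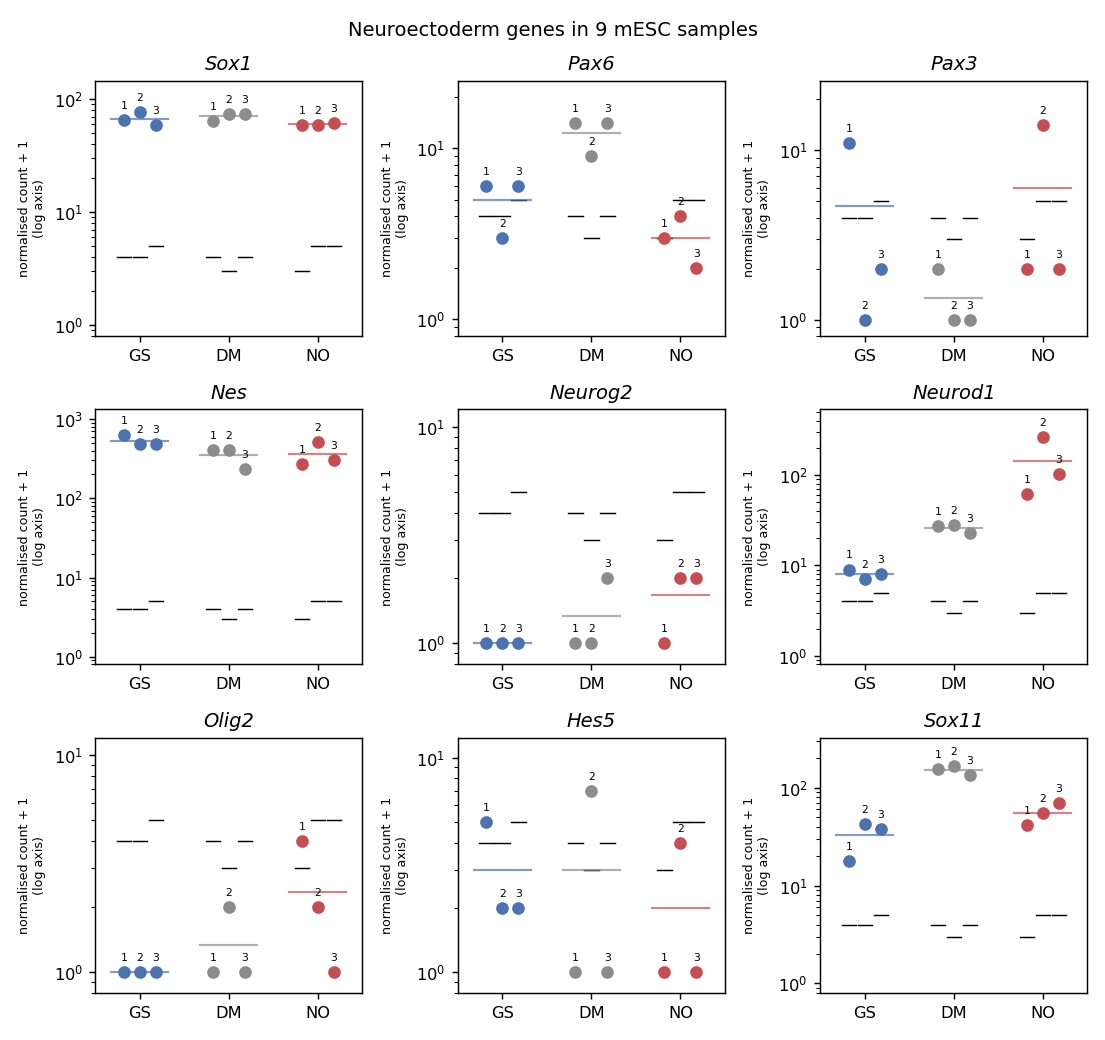
Normalised count + 1 (y axis, log scale) of the 9 genes in GS, DM and NO. Points are samples with their replicate numbers, coloured lines are group means, and short black lines mark the floor of 3 reads in each sample. Sox11 peaks in DM, Neurod1 is highest in NO, and Neurog2 lies under the floor in all samples.

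Per kb of exon, a scale on which genes can be set side by side, mean levels over the 9 samples fell from Nes (64.5 normalised counts per kb) through Neurod1 (21.3), Sox1 (13.5) and Sox11 (9.55) to Hes5 (1.22), Pax6 (0.494), Pax3 (0.485), Olig2 (0.22) and Neurog2 (0.15). Nes exceeded 56.1% of 18773 protein-coding genes and Neurog2 only 6.24%. The order depended on the medium. In GS, Nes (83.1 ± 13.1, SD, n = 3) was followed by Sox1 (13.7 ± 1.88), Sox11 (3.85 ± 1.59) and Neurod1 (2.57 ± 0.366), the last pair lying within their spread. In DM, Sox11 (18.2 ± 1.79) had moved above Sox1 (14.4 ± 1.19) and Neurod1 stood at 9.16 ± 0.969. In NO, Neurod1 (52.0 ± 39.7) and Nes (56.2 ± 20.3) could not be ordered given their spread, and Sox1 (12.2 ± 0.358) lay above Sox11 (6.58 ± 1.69). Among the 5 lowest genes, the SD in each medium was as large as most gaps between neighbours, and no order is read from them.

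Of the 5 tested genes, Sox11 and Neurod1 were higher in DM than in GS, Neurod1 was highest in NO, and Sox11 was lower in NO than in DM. Pax6 is listed with them, but it entered the test only through DM, where it was high, and its calls are a description. Fold changes are on the scale of log2(normalised count + 1). By count, 2 were called higher in DM vs GS (Sox11 and Neurod1) and none lower. Called means an adjusted p under 0.05 by limma and at least a 2-fold change. At an unadjusted limma p under 0.05, Nes was lower (0.035) and 3 were higher, Pax6 (0.029) besides the 2 called. Of all 18156 genes tested, 2.94% were called higher and 1.27% lower in this comparison. In NO vs GS, 1 was higher (Neurod1) and none lower (1, Nes, at an unadjusted p of 0.0465), against 10.1% and 1.64% of all genes. At an unadjusted limma p under 0.05, 2 were higher there, Sox11 besides Neurod1. In NO vs DM, 1 was higher (Neurod1) and 2 were lower (Sox11 and Pax6), against 6.78% and 1.77%. By the moderated F test over the 3 media, 3 of the 5 genes differed (adjusted p = 0.000891 for Neurod1, 0.00232 for Sox11 and 0.0388 for Pax6), against 23.3% of all genes, and Nes (0.15) and Sox1 (0.676) did not pass. The median log2 fold change of the 5 was 1.34, -0.16 and -0.23 in these comparisons, beside -0.000685, -0.0164 and 0.00104 over all genes. The DM vs GS median was the value of Pax6 itself, selected through its high DM samples, and is not read as a shift of the group. The other 4 genes stood at -0.65 (Nes), 0.08 (Sox1), 1.70 (Neurod1) and 2.30 (Sox11) in DM vs GS. With 5 genes, these counts describe the genes and no more. Without Pax6, 4 genes remain, of which Sox11 and Neurod1 differed, Sox11 being highest in DM and Neurod1 in NO.

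**Figure D3:**
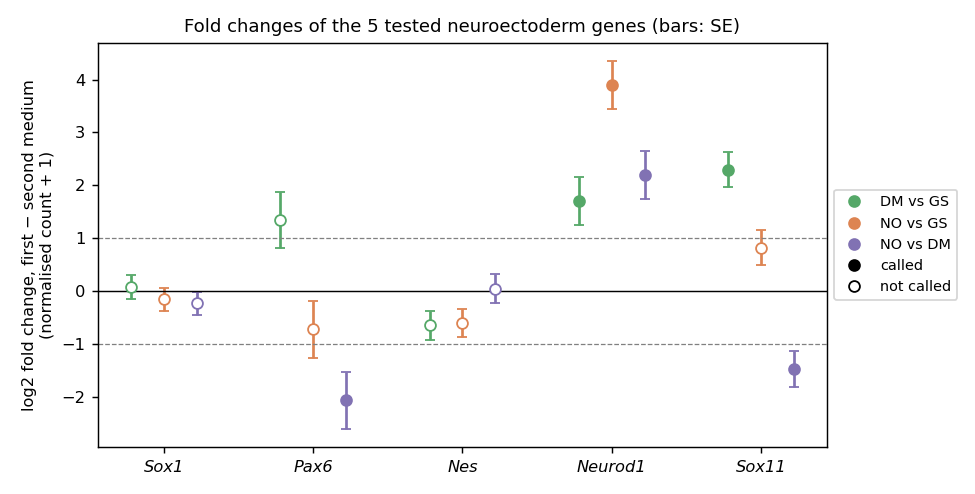
Log2 fold changes of normalised count + 1 (y axis, first minus second medium) of the 5 tested genes for each pair of media, with bars for 1 SE, filled points for called values and dashed lines at a 2-fold change. Neurod1 is above 0 throughout, Sox11 lies at 2.30 (DM vs GS) and -1.48 (NO vs DM), and the Sox1 and Nes points lie within the dashed lines.

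The Sox factors came apart. Sox1 (single exon, chr8:12395295-12400126, plus strand, GRCm38) gave 65, 76 and 58 normalised counts in GS replicates 1 to 3, 63, 73 and 73 under DM and 58, 58 and 61 under NO. The media lay close to one another, and no NO sample reached the lowest DM sample. The log2 fold change was 0.08 for DM vs GS (95% interval -0.41 to 0.56, adjusted p = 0.892), -0.16 for NO vs GS (-0.64 to 0.32, adjusted p = 0.65) and -0.23 for NO vs DM (-0.71 to 0.25, adjusted p = 0.505). A 2-fold change of Sox1 lay outside all 3 intervals in this scaling, but after quantile normalisation the values were -0.60 for NO vs GS (SE 0.23, adjusted p = 0.0952) and -0.56 for NO vs DM (SE 0.23, adjusted p = 0.13), which leaves a 2-fold decrease within reach. The transcript Sox1ot, whose span contains Sox1 but which shares no exon bases with it, gave 21, 19 and 20 normalised counts under GS, 46, 37 and 52 under DM and 41, 9 and 24 under NO.

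Sox11 (single exon, chr12:27334264-27342574, minus strand), a SoxC factor, gave 17, 42 and 37 normalised counts under GS, 155, 164 and 135 under DM and 41, 54 and 69 under NO. All DM samples were above all others, whereas the GS and NO samples overlapped. Sox11 rose in DM vs GS by 2.30 on the log2 scale (SE 0.34, adjusted p = 0.00187), that is 4.92-fold, and this call held in all 18 alternative fits. With the NO donor it stayed below DM, at a log2 fold change of -1.48 (SE 0.34, adjusted p = 0.017), that is 2.79-fold. NO vs GS gave a log2 fold change of 0.82 (SE 0.34, adjusted p = 0.108), short of the threshold. The NO vs DM call was lost without DM replicate 1 (adjusted p = 0.0578) or DM replicate 2 (0.0615), while without NO replicate 2 the log2 fold change was -1.49 (adjusted p = 0.0355).

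Their relatives were read as a list of 6 SoxB and SoxC genes, of which 5 were in the table and tested. Sox4, the SoxC factor closest to Sox11 in role, gave 90, 87 and 98 normalised counts under GS, 329, 360 and 549 under DM and 167, 227 and 255 under NO. It rose in DM vs GS (log2 fold change 2.12, SE 0.23, adjusted p = 0.000303) and in NO vs GS (1.21, SE 0.23, adjusted p = 0.00443). All NO samples of Sox4 lay below all DM samples. NO vs DM fell short of a 2-fold change (log2 fold change -0.91, SE 0.23, adjusted p = 0.024 by limma). That comparison was called after quantile normalisation and without DM replicate 1 or NO replicate 3. Sox3, a SoxB1 factor of early neural progenitors, rose from 11, 8 and 5 normalised counts under GS to 23, 34 and 35 under DM and 18, 59 and 30 under NO (log2 fold changes 1.85 and 1.92, SE 0.46, adjusted p = 0.0329 and 0.0131). Its DM vs GS call was lost without GS replicate 2 or 3, any DM replicate or NO replicate 3, and its NO vs GS call without GS replicate 3. Sox21, a SoxB2 factor, rose in both media as well, by 1.23 under DM and 1.04 under NO on the log2 scale (SE 0.17, adjusted p = 0.00111 and 0.0019), the latter call being lost without NO replicate 1. The third SoxC gene, Sox12, was lower in NO (376, 213 and 320 normalised counts) than in DM (670, 793 and 836 normalised counts; log2 fold change -1.37, SE 0.23, adjusted p = 0.00531). Sox2, which mESC need for pluripotency, passed in no comparison (log2 fold changes -0.14 to 0.17). Sox4 and Sox21 were thus above GS in both serum media, although their NO vs GS calls were lost after quantile normalisation. Sox12 was called lower in NO vs DM, Sox4 was lower there but short of a 2-fold change, and Sox1 passed in no comparison.

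**Figure D4:**
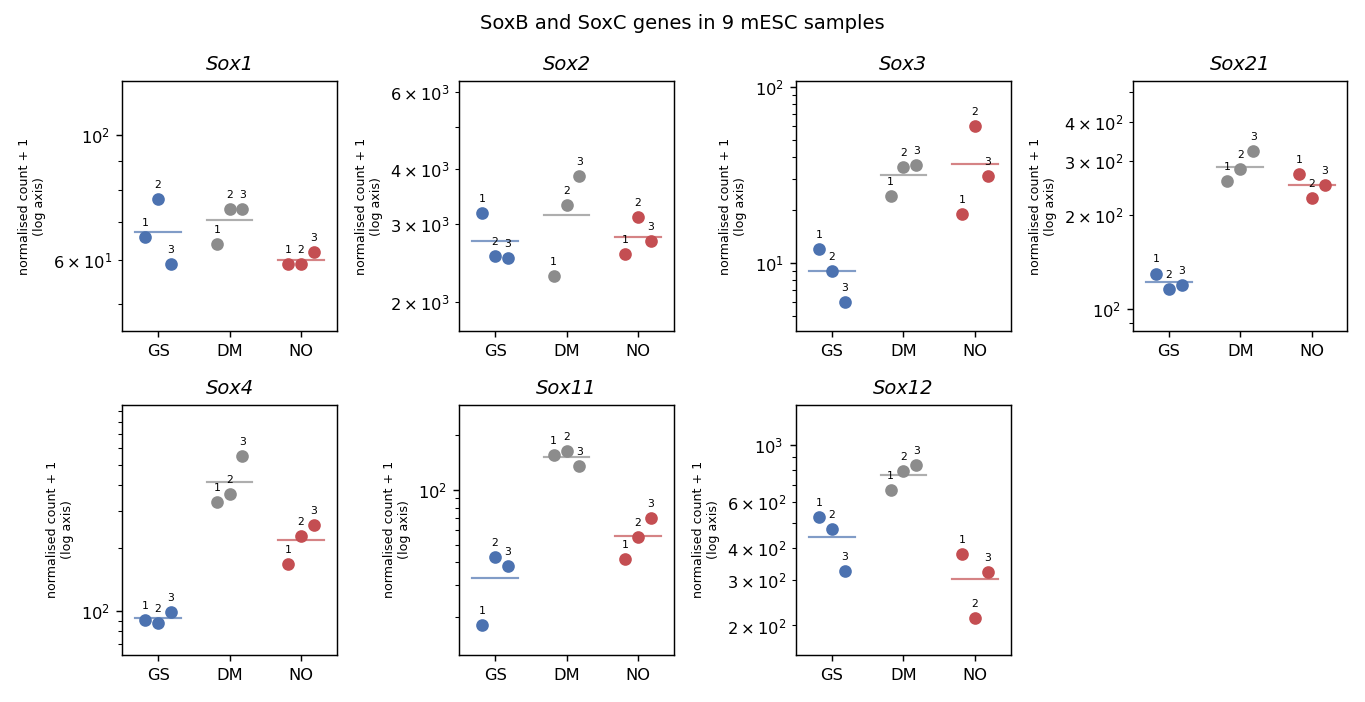
Normalised count + 1 (y axis, log scale, own range per panel) of 7 SoxB and SoxC genes in GS, DM and NO, points being samples with replicate numbers and lines group means. Sox11, Sox4 and Sox12 are highest in DM, Sox3 and Sox21 are above GS in DM and NO, and Sox1 and Sox2 overlap between GS and DM.

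Of the proneural genes, Neurod1 (2 exons, chr2:79452521-79456751, minus strand) showed the largest fold change of the 5 tested genes, and Neurog2 none that could be measured. Neurod1 encodes a basic helix-loop-helix factor of neuronal and endocrine cells. It gave 8, 6 and 7 normalised counts under GS, 26, 27 and 22 under DM and 60, 265 and 101 under NO. The 3 groups did not overlap, and NO varied most, from 60 to 265 (142 ± 108, SD, n = 3). In NO vs GS it rose by 3.89 on the log2 scale (SE 0.46, adjusted p = 0.000603), that is 14.9-fold. In NO vs DM it rose by 2.19 (SE 0.46, adjusted p = 0.0118), that is 4.57-fold. Both calls held in all 18 alternative fits, and without NO replicate 2 the log2 fold changes were 3.31 (adjusted p = 0.000318) and 1.61 (adjusted p = 0.0215). The DM vs GS difference of 1.70 (SE 0.46, adjusted p = 0.0476) was close to the threshold and was lost in 13 of 18 fits, 7 of which left out a single replicate (any of GS or DM, or NO replicate 3).

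The order of the NO replicates for Neurod1, with replicate 2 highest and replicate 1 lowest, was that of several markers of other cell types. Summed primitive endoderm markers stood at 179, 661 and 304 normalised counts in NO replicates 1 to 3, against 116 to 176 in GS and 76 to 158 in DM, and 1 of the 4 tested, Gata6, was called higher in NO vs GS. Trophoblast markers summed to 206, 669 and 279, against 359 to 429 in GS and 63 to 80 in DM, and 3 of the 5 tested (Gata3, Hand1 and Tfap2c) were called higher in NO vs DM. In NO vs GS, Hand1 was called higher and Cdx2 lower. Cdx2 passed the minimum mean only through GS, where it was high, so its call is given as a description. Of all genes tested, 6.78% were called higher in NO vs DM, and 10.1% higher and 1.64% lower in NO vs GS. Mesendoderm markers summed to 122 to 166 in NO, 135 to 183 in DM and 422 to 548 in GS. T, Eomes and Gsc were called lower in DM and NO than in GS, and T higher in NO vs DM. For T, DM (10, 1 and 0 normalised counts) and NO (8, 28 and 22) overlapped, and DM replicates 2 and 3 were under the floor. Mesp1, which passed the minimum mean only through NO, was called higher in NO vs GS, as a description. The 6 fibroblast markers summed to 211 to 296 in NO, 231 to 249 in DM and 99 to 122 in GS. Of the 4 tested, Thy1 alone was called higher in DM vs GS, at 168 to 211 normalised counts against 59 to 60. In NO, Col1a1 was called higher than in GS and DM, and Thy1 higher than in GS. Of these 21 markers, T and Cdx2 were listed at 0 in at least 1 DM sample, Lum and Mesp1 at 0 in samples of more than 1 medium, and the others were above 0 throughout. Whether the calls of these markers in NO hold without NO replicate 2 was not tested. The part of such cells in the Neurod1 values was not tested. Neurod1 shares 355 of its 2729 exon bases with other genes. Its same-strand neighbour Cerkl, which holds 201 of them, gave 10, 10 and 4 normalised counts under GS, 6, 5 and 14 under DM and 18, 19 and 26 under NO, below those of Neurod1 in every DM and NO sample. The other 154 belong to an opposite-strand lincRNA, Gm26755, which gave 0 to 4 normalised counts in all samples, and reads there are uncertain if strand was not used in counting.

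Neurog2 (chr3:127633135-127635631, plus strand), the factor upstream of neuronal differentiation in cortex and spinal cord, was listed at 0 in 6 of 9 samples and at 1 in DM replicate 3 and NO replicates 2 and 3. Each of these values stands for 1 read. With a floor of 2 to 4 normalised counts per sample, a difference between media was not detectable at this depth. The other proneural and neuronal genes were taken as a list of 24, of which 15 were tested. In DM vs GS, Gap43, a growth cone protein, was called higher (log2 fold change 1.43, SE 0.34, adjusted p = 0.0271, lost without GS replicate 2 or 3 or any DM replicate), and the neurofilament genes Nefm and Nefl were called lower (-2.20 and -1.85, adjusted p = 0.00322 and 0.00398). Nefm fell from 71, 164 and 107 normalised counts under GS to 26, 25 and 18 under DM, and stood at 56, 105 and 103 in NO. In NO vs GS the genes called were Ebf2 and Myt1, both neuronal transcription factors, and both higher. Ebf2 had 16, 128 and 29 normalised counts in NO, 1 in every GS sample and 0 in every DM sample. Myt1 had 3, 49 and 24 in NO, 0 in every GS sample and 1, 0 and 6 in DM, and its call was lost without NO replicate 3. Without NO replicate 2 it had too low a mean to be tested. Both genes passed the minimum mean only through the NO samples, in which they were high, so that their calls are given as a description. In NO vs DM, Ebf2 and Nefm were called higher, and Stmn2 and Gap43 lower, Stmn2 not without NO replicate 2 and Gap43 not without DM replicate 2 or 3 or NO replicate 3. The neuron-specific tubulin Tubb3 passed in no comparison. NO replicate 2 was the highest sample for Ebf2 and Myt1, as for Neurod1.

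Both Pax genes were scarce. Pax6 (chr2:105668900-105697364, plus strand), a factor of forebrain and eye, gave 5, 2 and 5 normalised counts under GS, 13, 8 and 13 under DM and 2, 3 and 1 under NO. DM samples were above the others, and 4 of the 6 GS and NO samples were at or under the floor. In NO vs DM it was called lower (log2 fold change -2.07, SE 0.54, adjusted p = 0.028), whereas DM vs GS missed the threshold (1.34, SE 0.54, adjusted p = 0.184), as did NO vs GS (-0.72, adjusted p = 0.368). In estimated reads summed over replicates and scaled to depth, DM exceeded GS 2.8 times (38 against 11 reads, exact 95% interval 1.4 to 6.08) and NO 5.04 times (38 against 6 reads, 2.11 to 14.6). These intervals cover counting error only and leave out the spread between replicates. Pax6 was tested only through its high DM samples, so the intervals and its call are a description. They add no support for a difference between media. The NO vs DM call was lost in the fit of the 6 samples compared (adjusted p = 0.0544), without DM replicate 2 (0.0566) and without NO replicate 3 (0.0872). Without DM replicate 1 or 3, the mean fell under the minimum for testing. Pax3 (chr1:78101267-78197134, minus strand), which marks the dorsal neural tube and neural crest, was above the floor in 2 samples, GS replicate 1 with 10 and NO replicate 2 with 13 normalised counts. The other 7 samples held 0 or 1, so that no medium had more than 1 sample with Pax3 above the floor.

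Anterior and regional factors of the neural plate formed a list of 36 genes, 20 of them tested. In DM vs GS, 5 were called higher, among them Zic2, Otx2, Pax8 and Zic5, and 1 lower, Nkx6-2. These were 25% and 5% of those tested, against 2.94% and 1.27% of all genes, as a description. Otx2, a factor of forebrain and epiblast, gave 378, 314 and 392 normalised counts under GS, 1582, 1535 and 1685 under DM and 717, 219 and 485 under NO. It rose in DM vs GS by 2.15 on the log2 scale (SE 0.32, adjusted p = 0.00218) and was lower in NO vs DM (-1.91, SE 0.32, adjusted p = 0.00527). Zic2 shared this order, with 91, 92 and 57, then 318, 302 and 360, then 146, 101 and 171 normalised counts. Pax8, of the Pax family of Pax6 and Pax3, had 8, 5 and 1 in GS, 35, 27 and 40 in DM and 4, 1 and 3 in NO. It was higher in DM vs GS (2.86, SE 0.61, adjusted p = 0.0156, lost without GS replicate 3 or DM replicate 1 or 3) and lower in NO vs DM (-3.34, SE 0.61, adjusted p = 0.00685). In NO vs DM, 15% of the tested list genes were called higher and 25% lower, against 6.78% and 1.77% of all genes. Of the 5 list genes called lower in NO vs DM, Gbx2, Otx2, Pax8, Zic2 and Zic5, all but Gbx2 were among those called higher in DM vs GS, in comparisons that share the DM samples. Others went the opposite way. Nkx6-2, a ventral neural factor, fell from 292, 362 and 270 normalised counts under GS to 39, 57 and 40 under DM and stood at 95, 348 and 190 in NO (NO vs DM 2.02, SE 0.38, adjusted p = 0.00762). Pax7, a dorsal factor, was higher in NO (11, 51 and 24) than in GS (3, 5 and 3) and DM (5, 6 and 3). Pax7 passed the minimum mean only through NO and Pax8 only through DM, so their calls are given as a description. The NO vs DM call of Pax7, and that of Zic5, was lost without any one of the DM replicates or NO replicate 2 or 3. The DM vs GS call of Zic5 was lost without any one of the GS or DM replicates.

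Olig2 (chr16:91225457-91228677, plus strand) was listed at 0 in 6 of 9 samples and at 1 in DM replicate 2 and NO replicate 2. NO replicate 1, with 3 normalised counts or about 4 reads, was the sole sample above the floor. The nearest protein-coding neighbour, the related gene Olig1, lies 41095 bp away and ranged from 0 to 2 normalised counts under GS, 1 to 4 under DM and 3 to 6 under NO. Neither gene was tested. Of 16 further progenitor and glial genes, 11 were tested. Slc1a3, a glutamate transporter of radial glia, rose from 90, 113 and 103 normalised counts under GS to 498, 426 and 421 under DM (log2 fold change 2.13, SE 0.25, adjusted p = 0.000454) and was lower in NO, at 247, 118 and 195 (NO vs DM -1.32, SE 0.25, adjusted p = 0.00771). In NO vs GS, 4 were called higher, Aldh1l1, Gfap, Mbp and Cspg4. This was 36.4% of those tested, against 10.1% of all genes, and is given as a description. Aldh1l1, a folate enzyme used as an astrocyte marker, had 1609, 4834 and 2883 normalised counts in NO against 663 to 733 in DM and 826 to 1097 in GS. The calls of Mbp and Cspg4 were lost without NO replicate 2 or 3 or GS replicate 2 or 3, that of Mbp also without GS replicate 1, and that of Gfap without GS replicate 2 or 3 or NO replicate 3. Also lost without NO replicate 2, or any other one but NO replicate 1, was the NO vs DM call of Mbp, which in addition did not pass with the replicate number as a block.

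Hes5 (3 exons, chr4:154960923-154962371, plus strand) gave 4, 1 and 1 normalised counts under GS, 0, 6 and 0 under DM and 0, 3 and 0 under NO. It exceeded the floor in GS replicate 1 and DM replicate 2, and no medium had it above the floor in more than 1 sample. Of its 1363 exon bases 433 also belong to an antisense transcript, Gm20421, so that its reads are uncertain if strand was not used in counting. Its relatives and the Id proteins, which block proneural factors, formed a list of 12, of which 11 were tested. None was called by limma in DM vs GS (2 higher and 1 lower at an unadjusted p under 0.05). Of all genes, 2.94% were called higher and 1.27% lower in that comparison. Against GS, the NO samples had 4 higher genes (Id1, Id2, Heyl and Hes2) and 1 lower, Hes7 of the segmentation clock. These were 36.4% and 9.09% of those tested, against 10.1% and 1.64% of all genes, as a description. Heyl passed the minimum mean only through NO, so its calls are given as a description. Id2 gave 42, 45 and 53 normalised counts under GS, 70, 71 and 51 under DM and 97, 699 and 187 under NO, and rose in NO vs GS by 2.31 on the log2 scale (SE 0.53, adjusted p = 0.0117) or, without NO replicate 2, by 1.52 (adjusted p = 0.00738). Id1 gave 162, 198 and 163 normalised counts under GS, 374, 367 and 619 under DM and 287, 1033 and 676 under NO. It was called higher in NO vs GS (adjusted p = 0.00835), whereas DM, also without overlap with GS, fell short (log2 fold change 1.34, adjusted p = 0.0593), a value that passed with the replicate block, equal totals, the fit of the 6 samples compared, or without NO replicate 1 or 2. NO and DM overlapped (0.41, adjusted p = 0.491). Hes7 fell to 2, 0 and 0 normalised counts in NO from 13, 14 and 8 in GS and 16, 11 and 6 in DM. Hey1 (-1.17) and Hes7 (-2.97) were lower in NO vs DM, Hey1 not without NO replicate 2, while Id2 and Heyl were higher, neither of them without it. Other single replicates also decided these, namely GS replicate 3 for Heyl, GS replicate 2 or 3 or NO replicate 2 or 3 for Hes2 in NO vs GS, and the DM replicates and NO replicate 3 for Hey1 and Id2 and, but for DM replicate 3, for Heyl in NO vs DM, Id2 being lost also without any GS replicate.

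Nes (4 exons, chr3:87971078-87980451, plus strand) was the most abundant of the 9 genes. It gave 630, 482 and 487 normalised counts under GS, 409, 402 and 231 under DM and 266, 509 and 307 under NO. DM lay below GS without overlap, and NO replicate 2 lay inside the GS range. No comparison was called, with log2 fold changes of -0.65 for DM vs GS (SE 0.27, 95% interval -1.25 to -0.05, adjusted p = 0.206), -0.61 for NO vs GS (-1.21 to -0.01, adjusted p = 0.137) and 0.04 for NO vs DM (-0.55 to 0.64, adjusted p = 0.932). Without NO replicate 2, NO vs GS was -0.89 (adjusted p = 0.0332), still short of a 2-fold change. Vim, the filament that pairs with nestin, passed in no comparison (log2 fold changes -0.06 to 0.04).

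The 8 lists of further neural genes held 116 genes, 113 of them in the table and 81 tested. They were chosen with earlier results of these data known, so the shares below describe these genes and are no test of them. In DM vs GS 10 were called higher and 3 lower (12.3% and 3.70% of those tested, against 2.94% and 1.27% of all genes). In NO vs GS 18 were higher and 1 lower (22.2% and 1.23%, against 10.1% and 1.64%), and in NO vs DM 10 were higher and 12 lower (12.3% and 14.8%, against 6.78% and 1.77%). The share called lower in NO vs GS was thus near that of all genes. The median log2 fold change of the 81 was 0.17, 0.09 and 0.06, beside -0.000685, -0.0164 and 0.00104 over all genes. Some of these genes, such as Ebf2, Myt1, Heyl, Pax7 and Pax8, were tested only through the medium in which they were high, and the counts include them as a description. Without NO replicate 2, 17 were called in NO vs GS, 13 of them the same genes as with it, and 13 in NO vs DM, all among the 22. Of the 7 tested neural crest genes, Ets1 and Twist1 were higher in NO vs GS and Msx2 in NO vs DM. Ets1 was not called without GS replicate 3, nor Twist1 without any one of the GS replicates or NO replicate 2 or 3. Of the 9 genes of the REST complex, which silences neuronal genes in other cells, only the corepressor gene Rcor2 was called, lower in NO vs DM (log2 fold change -1.12, SE 0.16, adjusted p = 0.00286, but -0.92 and under the 2-fold minimum without NO replicate 2). In the same comparison Rest (log2 fold change -0.58, adjusted p = 0.0439), Ehmt2 (-0.77, adjusted p = 0.0135) and Sin3a (-0.74, adjusted p = 0.0477) were lower but short of a 2-fold change. None of the 3 tested E proteins, the partners of proneural factors, was called in any comparison by limma (1 lower in NO vs GS and 2 lower in NO vs DM at an unadjusted p under 0.05). These were Tcf4 in NO vs GS (log2 fold change -0.83, adjusted p = 0.00734) and Tcf3 and Tcf4 in NO vs DM (-0.50 and -0.64, adjusted p = 0.0248 and 0.0328), which missed only the 2-fold minimum.

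**Figure D5:**
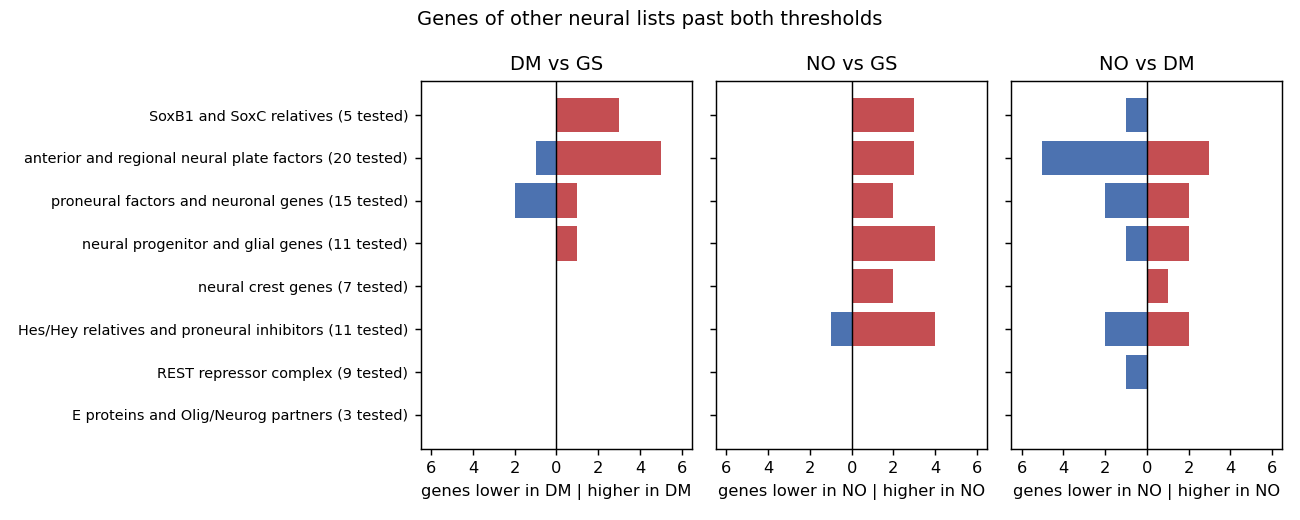
Number of genes (x axis) called lower (blue, left) or higher (red, right) in the first-named medium for 8 lists of further neural genes, with the number tested in each list and a panel per pair of media. The SoxB and SoxC relatives called against GS are all higher, and the regional factors hold 5 of the 12 genes lower in NO vs DM.

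The genes with the profile most like each of the 4 more abundant genes were found by Pearson correlation of log2(normalised count + 1) over the 9 samples, which share libraries and media, and are given as a description. For Neurod1 they were Ahi1 (r = 0.998), Sox15 (0.995) and Pnpla7 (0.991). Pnpla7, a lysophospholipase, ranged from 295 to 322 normalised counts under GS and from 551 to 570 under DM, and stood at 707, 2008 and 1164 under NO. For Sox11 they were Kif7 (0.977), Il17d (0.973) and Soga3 (0.955), the last with 25 to 47 in GS, 238 to 250 in DM and 97 to 122 in NO. Nes was closest to Fam73a (0.973), Uaca (0.946) and Dnaaf2 (0.932), and genes close to Sox1 included Hcfc1 (0.927) and Samd7 (0.923), over narrow ranges in both cases.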

How the data were processed

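Total RNA of mESC in GS, DM and NO, with 3 replicates each, was depleted of ribosomal RNA and sequenced on an Ion Torrent Proton by the authors. Per the methods and the submitters' processing notes, reads were checked with FastQC 0.11.2, trimmed with Reaper, aligned to GRCm38 with STAR 2.4.0a and counted over exons with featureCounts 1.4.5-p1, reads in several genes or positions being left out. Use of the strand is not given in the sources used here. The deposited values are a score, namely counts divided by DESeq2 size factors and rounded by the authors, so that no count model was fitted and raw depth had to be estimated from gaps and doubled values among low values.

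Groups and replicate numbers came from the labels. log2(value + 1) of 18156 genes with a mean above 5 was fitted with limma 3.58.1 in R 4.3.3 (3 media, 9 samples, no covariate, mean-variance trend), with two-sided tests and Benjamini-Hochberg adjustment over all of them. A call needed an adjusted p under 0.05 together with a 2-fold change in either direction (1 on the log2 scale). This scale understates changes of low genes. The 9 genes and the 8 further lists were chosen with earlier results of these data known. Of each further list, up to 4 called genes per comparison and direction with the smallest adjusted p were eligible to be named, as were the 3 genes most alike to each of the 9 with a mean above 50. Some eligible genes are not reported here. Zic5, Sox2, Tubb3, Vim, Olig1, Rest, Ehmt2, Sin3a, Tcf3 and Tcf4 were named after their values were seen. Exons and overlaps are from GENCODE M21 on GRCm38, promoters from RefSeq on GRCm38.p6.

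Replicate numbers recur in each medium. Deviations from the group means correlated between same-numbered DM and NO samples (0.159, 0.167 and 0.296), so these numbers were taken to pair DM with NO, although the labels do not say what a number shares. Alternatives were a fit of the 6 samples compared, the replicate block, other minimum means and pseudocounts, no trend, other scalings, no minimum fold change, other floors, and each replicate left out.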

Additional observations from a re-analysis of the deposited data

How the results depend on the processing

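Of 261 alternative values of the fold changes of the 5 tested genes, 238 kept their direction and their side of the threshold, 18 kept the direction only and 5 changed sign, all 5 for values near 0: Sox1 in DM vs GS (-0.0451 after quantile normalisation, -0.0160 without GS replicate 3, and -0.0160 to 0.176 over the replicates left out) and Nes in NO vs DM (-0.0175 after quantile normalisation, below 0 without DM replicate 3 or NO replicate 2, and -0.234 to 0.233 over the replicates left out). The 2 genes called in DM vs GS became 1, by loss of Neurod1, with the replicate block (adjusted p = 0.0627), no minimum mean, a minimum mean of 50, a pseudocount of 5, no mean-variance trend or quantile normalisation, and were 1 to 2 when a replicate was left out. The cause was not tested, except that the minimum of 50 leaves Neurod1 in and only 4 of the 9 genes tested. The 3 called in NO vs DM were 1 to 3 when a replicate was left out, 1 without DM replicate 1 or 2. The 1 called in NO vs GS was the same gene in every alternative. By the F test, 2 to 4 genes differed when a replicate was left out and 2 with the replicate block, Pax6 being lost. Among the further lists, a minimum mean of 50 left 7 of 19 calls in NO vs GS and 14 of 22 in NO vs DM, since fewer genes were tested (48 of 81). Leaving out a replicate gave 9 to 17 calls in DM vs GS, 10 to 26 in NO vs GS (10 without GS replicate 3) and 13 to 29 in NO vs DM (13 without NO replicate 2, 14 without DM replicate 2). Between DM and NO, which the numbers pair, the replicate block changed no call but that of Mbp. For GS they share only a number: correlations were -0.232 to 0.0216 with DM and -0.106 to 0.0503 with NO, and the block moved the calls of the further lists in DM vs GS from 13 to 14 and in NO vs GS not at all. With a floor of 10 reads, 6 genes were at the floor in GS and 5 in NO, and with a floor of 1 read 1 in NO. Depth limits Pax6, Pax3, Hes5, Olig2 and Neurog2, whose values rest on few reads.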
